A study of Mus musculus with 3 samples.

Results

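The MHC class II pathway was examined in mouse intestinal epithelium through 7 genes, out of the 51912 genes that the count tables list. They were given by name and matched by symbol: Cd74, H2-Aa, H2-Ab1, H2-Eb1, H2-DMa, H2-DMb1 and Ciita. All 7 were found. They had been picked with the contrast between Arid3a-deficient and wild-type cells in view, so that contrast is described below without a test, and no statement rests on it.

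Single-cell RNA sequencing (scRNA-seq) was available from 3 libraries of sorted intestinal cells. The animals of the 2 Arid3a cKO libraries were VillinCreERT2 Arid3a fl/fl, in which tamoxifen activates a Cre recombinase expressed from the epithelial Villin promoter, so that Arid3a is deleted in epithelium and not in immune or stromal cells. The animal of the 1 WT library carried VillinCreERT2 alone and also received tamoxifen, as did all animals, at 8 to 10 weeks of age, with harvest 1 month after the first injection. Crypts were dissociated and live Epcam+ CD45- CD31- cells were sorted, so leukocytes and endothelial cells were selected against. Neither strain nor the tie of each library to an animal is given by the labels, and with 1 WT library any feature of that library and any effect of the genotype cannot be told apart.

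MHC class II molecules are heterodimers of an alpha and a beta chain that carry peptides from the endosomal pathway to the cell surface, where CD4+ T cells recognise them. The chains assemble with the invariant chain, encoded by Cd74, which fills the peptide groove and directs the complex to endosomes. There the H2-DM heterodimer exchanges the remaining invariant chain fragment for other peptides. Transcription of all these genes depends on the coactivator CIITA, which binds no DNA itself and acts through factors that sit on conserved promoter elements called the X and Y boxes. Dendritic cells and B cells express the pathway constitutively, whereas other cells, intestinal epithelial cells among them, acquire it mainly under interferon gamma.

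On GRCm38 (GENCODE M21, matched by gene identifier), 5 of the 7 genes lie on chromosome 17 in the major histocompatibility region: H2-DMa at chr17:34119541-34139101, H2-DMb1 at chr17:34153072-34160230, H2-Ab1 at chr17:34257689-34269419, H2-Aa at chr17:34282744-34287823 and H2-Eb1 at chr17:34305867-34316674, with H2-Aa on the minus strand and the others on the plus strand. Ciita is at chr16:10480059-10528418 on the plus strand, and Cd74 lies on a further chromosome. All 7 are annotated as protein-coding.

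Because CIITA acts through shared promoter elements, promoter sequences are shown for the class II genes that RefSeq supplied (GRCm38.p6, 250 bases before to 50 bases after the RefSeq gene start). A promoter was matched for 4 of the 7 genes, with 5 promoters in all, since H2-DMa had more than 1. Both strands were searched for an X box written as CTNGNAACT and a Y box written as ATTGG. The letters of the X box were set after these promoters had been read. H2-DMb1, H2-Aa and H2-Eb1 each held an X box followed by a Y box on the strand of the gene, and neither H2-DMa promoter held the pair. The stretch around it is printed with the X box and the Y box in capitals, from chr17:34153082-34153146 (plus strand) for H2-DMb1, chr17:34287855-34287919 (minus strand) for H2-Aa and chr17:34305761-34305824 (plus strand) for H2-Eb1:
H2-DMb1: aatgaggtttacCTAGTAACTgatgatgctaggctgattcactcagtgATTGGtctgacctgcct
H2-Aa: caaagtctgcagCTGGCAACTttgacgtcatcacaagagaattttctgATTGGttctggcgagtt
H2-Eb1: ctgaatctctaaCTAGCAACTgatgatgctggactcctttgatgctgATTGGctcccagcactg

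The X box began 97, 84 and 94 bases before the RefSeq gene start in H2-DMb1, H2-Aa and H2-Eb1. For H2-DMb1 that start differs from the GENCODE start (chr17:34153072), and the printed stretch lies inside the GENCODE interval of the gene. Both H2-DMa promoters (chr17:34122582-34122881 and chr17:34125268-34125567) likewise lie inside the GENCODE interval of H2-DMa. Between the boxes lay 27, 27 and 26 bases. Of 32851 RefSeq promoters of the same length, 4.10% held the X box letters, 37.4% held the Y box letters, and 26 (0.0791%) held an X box followed by a Y box 15 to 30 bases further on the same strand. The boxes do not overlap each other. A match is a description of the letters and does not show that a factor was bound.

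The 3 matrices held 25554 barcodes, of which 5594 (21.9%) had at least 1000 genes and at most 15% of unique molecular identifiers (UMIs) from mitochondrial genes and were kept. Arid3a cKO 1 contributed 2134 cells, Arid3a cKO 2 1550 and WT 1910, with between 58169310 and 70922480 UMIs per library and a median of 29895 to 35764 UMIs per cell. Any 2 libraries shared between 11 and 18 barcodes. Arid3a itself had 42, 52 and 161 UMIs (0.592, 0.894 and 2.57 CPM, that is UMIs per 1000000 UMIs), so both Arid3a cKO libraries were below WT. Epcam, the sorted epithelial marker, was at 1956, 1969 and 1665 CPM. The WT library stood apart from both others for transcripts outside the pathway as well, such as the heat shock gene Hsph1 (27.8, 35.9 and 113.6 CPM) and mt-Nd3 (8.30, 10.3 and 276.8 CPM), named after their values were seen. Whether such differences and the class II differences share a source was not tested. Values set side by side are always in the order Arid3a cKO 1, Arid3a cKO 2 and WT, and intervals are exact 95% intervals that cover counting error only.

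Summed over the 7 genes and all kept cells, there were 9899, 5223 and 36139 UMIs. This is 139.6 CPM (136.8 to 142.4), 89.8 CPM (87.4 to 92.3) and 576.4 CPM (570.5 to 582.4). WT was thus 4.13-fold above Arid3a cKO 1 and 6.42-fold above Arid3a cKO 2, and Arid3a cKO 1 was 1.55-fold above Arid3a cKO 2. The gap between the cKO libraries exceeded their counting intervals, which is to say that samples of this kind differ by more than counting error, yet WT was further from either of them than they were from each other.

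Cd74, the invariant chain and the most counted of the 7, had 3925, 2180 and 19153 UMIs, or 55.3 CPM (53.6 to 57.1), 37.5 CPM (35.9 to 39.1) and 305.5 CPM (301.2 to 309.9). Both cKO libraries lay far below WT, by 5.52-fold and 8.15-fold, which are log2 ratios of -2.36 and -2.87. All log2 ratios here compare a cKO library with WT after 5 CPM were added to each level, and they therefore understate differences of genes near or under 5 CPM.

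The chains of the peptide-presenting heterodimers followed. H2-Aa, the alpha chain of I-A, was at 7.02, 4.18 and 36.5 CPM (498, 243 and 2290 UMIs). H2-Ab1, its beta chain, was at 38.3, 23.4 and 120 CPM (2715, 1362 and 7521 UMIs). H2-Eb1, the beta chain of I-E, was at 18.7, 11.98 and 65.6 CPM (1327, 697 and 4112 UMIs). In each of the 3, Arid3a cKO 2 was lowest and WT highest, and no 2 intervals overlapped. The log2 ratios were -1.79 and -2.18 for H2-Aa, -1.53 and -2.14 for H2-Ab1 and -1.57 and -2.06 for H2-Eb1. The alpha chain of I-E, listed as H2-Ea-ps, had 0 UMIs in every library. Transcripts of a complete I-E dimer were thus not seen.

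The H2-DM genes encode the dimer that loads peptides. H2-DMa was at 15.3, 9.71 and 31.9 CPM (1086, 565 and 1997 UMIs), a WT level 2.08-fold and 3.28-fold above the cKO libraries. H2-DMb1 was at 3.93, 2.58 and 14.3 CPM (279, 150 and 899 UMIs), with WT 3.65-fold and 5.56-fold higher. The order of the libraries was the same as for the chains, and H2-DMa had the smallest ratios of the 7 genes to both cKO libraries. H2-DMb1 has a near-identical neighbour, H2-DMb2, which had 1 UMI in all, and reads that fit both could have been lost or placed on either.

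Ciita was the least counted. It had 69, 26 and 167 UMIs, which is 0.973 CPM (0.757 to 1.23), 0.447 CPM (0.292 to 0.655) and 2.66 CPM (2.28 to 3.10). WT was again the highest and Arid3a cKO 2 the lowest, and the intervals did not overlap. Since this coactivator lies below the pseudocount, its log2 ratios were only -0.36 and -0.49, while its ratios of CPM were 2.74-fold (2.06 to 3.68) and 5.96-fold (3.93 to 9.39). The plot of the levels by library shows the 7 genes together.

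**Figure D1:**
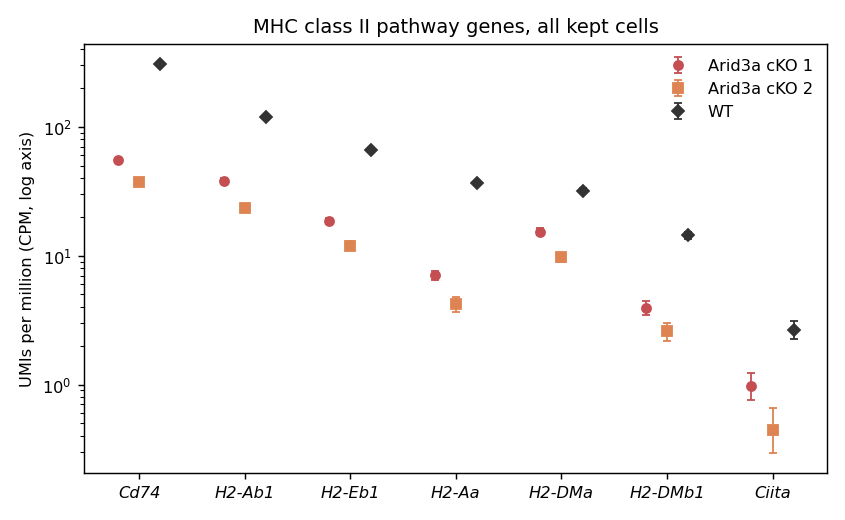
Level of each of the 7 MHC class II pathway genes in all kept cells, as CPM on a log axis, in Arid3a cKO 1 (circles), Arid3a cKO 2 (squares) and WT (diamonds), with exact 95% Poisson intervals that cover counting error only. WT is highest and Arid3a cKO 2 lowest for every gene, from Cd74 (305.5 CPM in WT) down to Ciita (2.66 CPM in WT).

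As background for these values, 15 of 5336 genes with a mean of at least 20 CPM (0.281%) were lower in both cKO libraries by a log2 ratio of at least 1, and the median log2 ratio over these genes was 0.02. Only 3 of the 7 genes reached a mean of 20 CPM (Cd74, H2-Ab1 and H2-Eb1), and all 3 were among the 15. With no minimum, 22 of 26362 genes (0.0835%) met the same limit, 5 of the 7 among them. The others, H2-DMa and Ciita, missed it in at least 1 library. As the genes were chosen on this contrast, nothing is read from these counts.

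The 7 transcripts did not keep the same proportions. Cd74 made up 39.7% (38.7 to 40.6) and 41.7% (40.4 to 43.1) of the UMIs of the 7 genes in the cKO libraries and 53.0% (52.5 to 53.5) in WT. H2-DMa made up 10.97% and 10.8% in the cKO libraries against 5.53% in WT, and H2-Ab1 27.4% and 26.1% against 20.8%. For these 3 genes the cKO libraries were close to each other and apart from WT. H2-DMb1, at 2.82%, 2.87% and 2.49%, had overlapping intervals in all libraries.

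To see in which cells the pathway is expressed, cells were grouped into 11 clusters made without the genes of the pathway. Markers placed 10 of them: intestinal stem cells (ISC-like), dividing transit-amplifying cells (TA-like), 3 enterocyte-like clusters led by Ms4a18, by Cubn and Slc5a12 and by Akp3 and S100g, and goblet-, Paneth-, tuft- and a pair of enteroendocrine-like clusters. Of the leading 10 genes of the ISC-like cluster, Olfm4 and Lgr5 are stem cell markers and Ung, Mcm2, Mcm3, Mcm4 and Hells are DNA replication and repair genes of cycling cells. At a clustering resolution of 0.8 the cluster led by Lgr5 and Olfm4 held 381 cells, where the ISC-like cluster used here held 1078, with other cells of the crypt in clusters of their own. The remaining cluster (757 cells), led by 1500035N22Rik, Ccl20, Edn2 and Bmp3, had too few markers of any class and is left unnamed. The tuft-like cluster was shallow, with a median UMI count 0.295 times that of the libraries it came from, and was named because 8 of its leading 10 genes were tuft markers.

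The summed level was highest in the Cubn and Slc5a12 enterocyte-like cluster in each library, at 332.9 CPM (322.1 to 343.9), 206.2 CPM (197.1 to 215.7) and 1269 CPM (1247 to 1291). Cubn encodes an endocytic receptor and Slc5a12 a lactate transporter, both of absorptive cells. The tuft-like cluster held the lowest level in Arid3a cKO 1 and WT, at 19.5 CPM (9.36 to 35.9) and 78.7 CPM (55.1 to 108.9), and had 14.6 CPM (5.37 to 31.9, from 6 UMIs) in Arid3a cKO 2. In Arid3a cKO 2 the Paneth-like cluster was lower still, at 1.57 CPM (0.429 to 4.03), but this rests on 4 UMIs from 17 cells.

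Crypt cells were well above the tuft-like level. ISC-like cells were at 136.2 CPM (130.2 to 142.4), 61.0 CPM (56.3 to 66.0) and 627.5 CPM (613.3 to 642.0). TA-like cells were at 100.6 CPM (94.7 to 106.8), 63.8 CPM (59.1 to 68.7) and 563.1 CPM (549.1 to 577.3). These classes were close to each other: in Arid3a cKO 2 their intervals overlapped, while in the other libraries ISC-like cells were higher.

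Outside the crypt classes the level did not run in one direction. The unnamed cluster led by Ccl20 and Bmp3 was at 64.3, 46.3 and 264.6 CPM, below ISC- and TA-like cells in every library. The Ms4a18 enterocyte-like cluster was at 74.5, 52.3 and 402.4 CPM. In all 3 libraries, therefore, ISC-like cells were above the unnamed cluster and below the Cubn and Slc5a12 cluster. Among the 11 clusters they had rank 4, 6 and 2 from the top, so they stood high mainly in WT.

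The Akp3 and S100g enterocyte-like cluster, which carries genes of the proximal intestine, was the one in which Arid3a cKO 1 was closest to WT. Its level was 250.6 CPM (237.5 to 264.3), 188.9 CPM (177.4 to 201.1) and 518.9 CPM (498.1 to 540.3). WT was 2.07-fold above Arid3a cKO 1 there, against 3.81-fold in the Cubn and Slc5a12 cluster and 4.61-fold in ISC-like cells. For Cd74 the Akp3 and S100g cluster was at 85.3, 81.8 and 229.3 CPM and the Cubn and Slc5a12 cluster at 83.3, 54.8 and 520.6 CPM. The former was thus higher in Arid3a cKO 2 and the latter in WT, and in Arid3a cKO 1 their intervals overlapped (77.7 to 93.4 and 78.0 to 88.9 CPM). These differences between clusters come from 1 WT library and were not tested.

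Among secretory cells, goblet-like cells were at 70.1 CPM (61.0 to 80.2), 49.2 CPM (42.4 to 56.7) and 289.9 CPM (273.7 to 306.9). The larger enteroendocrine-like cluster was at 29.8 CPM (19.3 to 44.0), 69.2 CPM (51.8 to 90.5) and 175.4 CPM (155.1 to 197.7), the one cluster in which Arid3a cKO 2 was above Arid3a cKO 1. A small enteroendocrine-like cluster of 48 cells, led by Ghrl, Gip and the muscle gene Acta1, was at 172.4, 91.8 and 588.7 CPM. In goblet-like cells H2-Ab1 had 132, 129 and 296 UMIs and Cd74 had 53, 47 and 729, so that H2-Ab1 was ahead in the cKO libraries and Cd74 in WT. The Cubn and Slc5a12 enterocyte-like cluster had the same order, with 1297, 628 and 3123 UMIs of H2-Ab1 and 905, 506 and 5134 of Cd74. This order is of UMIs only. By the share of cells with a UMI, H2-Ab1 was ahead in WT as well. It was seen in 63.6% of WT goblet-like cells, and Cd74 in 36.4%. In WT cells of the Cubn and Slc5a12 cluster the shares were 89.6% for H2-Ab1 and 81.3% for Cd74.

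**Figure D2:**
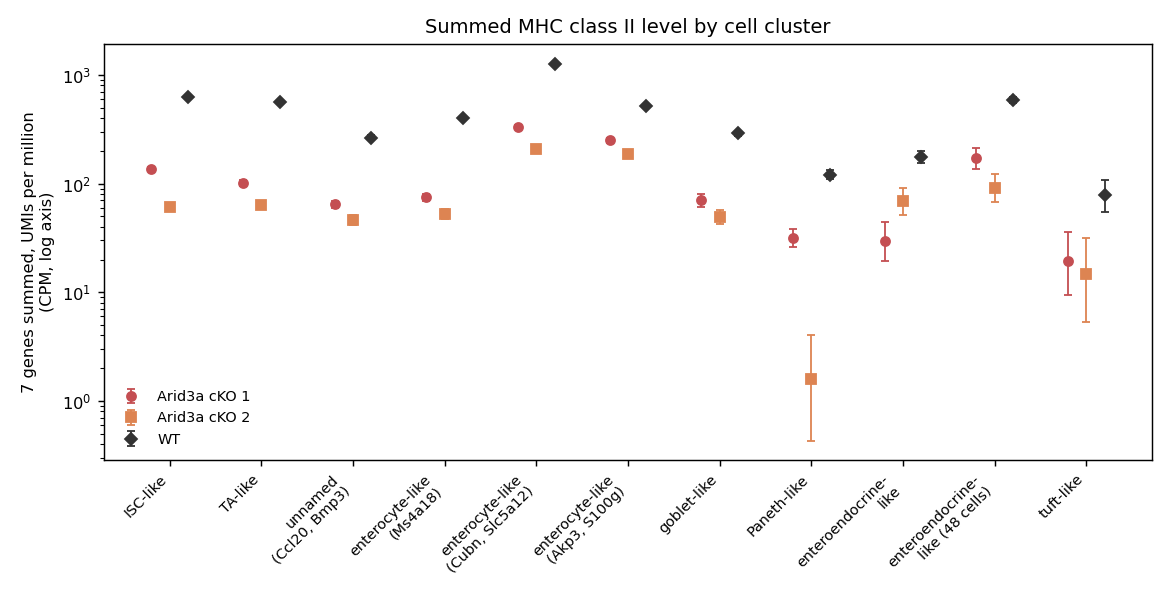
Summed level of the 7 genes in each of the 11 cell clusters, as CPM on a log axis, for Arid3a cKO 1 (circles), Arid3a cKO 2 (squares) and WT (diamonds), with exact 95% Poisson intervals. In every cluster WT is highest, and the Cubn and Slc5a12 enterocyte-like cluster has the highest level in each library.

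The summed level of both cKO libraries was below that of WT in 11 of 11 clusters, with no overlap of intervals. The same held for Cd74 in 11 clusters, H2-Ab1 and H2-Eb1 in 9, and H2-Aa, H2-DMa and H2-DMb1 in 7. Ciita was below WT in both cKO libraries in 8 clusters, but in only 2 were the intervals apart, and a difference in the rest was not detectable at this depth. Arid3a cKO 2 was below Arid3a cKO 1 in 10 of 11 clusters for the sum. The clusters of a library share its preparation and are not replicates. The share of all genes with intervals apart in this way was not counted. As the 7 genes were chosen on this contrast, nothing is read from these cluster counts.

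Within classes, the log2 ratios of the sum were -1.88 and -2.37 over the 3 enterocyte-like clusters (216.2, 151.8 and 806.9 CPM) and -2.26 and -3.16 over ISC- and TA-like cells (120.8, 62.4 and 596.4 CPM). In enterocyte-like cells 4 of the 5 genes with a mean of at least 20 CPM were lower by a log2 ratio of at least 1 in both libraries, as were 0.254% of 4723 genes. In ISC- and TA-like cells this held for 3 of 3, against 0.143% of 5603 genes. H2-DMa was the exception in enterocyte-like cells (23.0, 13.3 and 44.8 CPM). With no minimum 5 of 7 met the limit in either class, against 0.0952% of 21019 genes in enterocyte-like cells and 0.0475% of 23141 genes in ISC- and TA-like cells. The 5 included H2-DMb1 in enterocyte-like cells and H2-DMa in ISC- and TA-like cells. Nothing is read from these counts either, since the genes were chosen on this contrast.

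Makeup also differed between classes. In ISC- and TA-like cells of the cKO libraries Cd74 made up 58.4% and 57.3% of the UMIs of the 7 genes, and in enterocyte-like cells 28.9% (27.7 to 30.1) and 34.1% (32.5 to 35.8). H2-Ab1 in the same cKO libraries made up 17.0% and 15.9% in ISC- and TA-like cells and 32.7% and 29.5% in enterocyte-like cells. The I-A beta chain was thus counted more often than the invariant chain in enterocyte-like cells of Arid3a cKO 1 and somewhat less often in those of Arid3a cKO 2, and much less often in the crypt cells of both. The classes differed in the same direction in WT. There Cd74 made up 62.7% in ISC- and TA-like cells and 43.9% in enterocyte-like cells, and H2-Ab1 15.7% and 24.8%.

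The UMIs were unevenly spread over cells. At least 1 UMI of the 7 genes was found in 63.2%, 50.9% and 86.8% of cells. The median cell had 0.361, 0.132 and 2.57 UMIs of the 7 genes per 10000 UMIs, and the cell at the 90th percentile 4.09, 2.11 and 15.5. A long upper tail was thus present in every library. The 1% of cells with the most held 14.97%, 25.1% and 9.11% of all UMIs of the 7 genes, and single cells reached 111, 173 and 212 UMIs.

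In ISC-like cells the median was 0.412, 0.170 and 4.56 UMIs per 10000, and 64.6%, 53.9% and 97.3% of cells had at least 1. In the Cubn and Slc5a12 cluster the median was 1.20, 0.497 and 7.61 UMIs per 10000, with 79.4%, 66.5% and 96.6% of cells positive. WT cells of these clusters were nearly all positive, while a large part of the cKO cells had no UMI. The tuft-like cells serve as the low end, with 20.5%, 30% and 25% positive at a median depth of 9021, 13283.5 and 8882 UMIs, far shallower than ISC-like cells (28168, 33080 and 27142.5). No class known to lack these transcripts was at hand, so the share that free RNA contributes was not measured. On the CPM scale, which takes depth into account, tuft-like cells of WT were at 78.7 CPM and ISC-like cells at 627.5 CPM.

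Depth was then equalised by thinning each cell to 21000 UMIs, which left out 392, 276 and 429 shallower cells. A Cd74 UMI was seen in 30.9% of the thinned cells of Arid3a cKO 1 (28.7 to 33.1), 21.2% of those of Arid3a cKO 2 (19.0 to 23.5) and 74.9% of those of WT (72.7 to 77.1). Without thinning the shares were 35.8%, 23.5% and 73.2%. H2-Ab1 was seen in 31.6%, 21.2% and 67.2% of thinned cells, H2-Eb1 in 18.5%, 10.99% and 45.6% and H2-Aa in 7.75%, 6.04% and 26.5%. The libraries kept the same order for each gene, though for H2-Aa the cKO libraries were close.

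**Figure D3:**
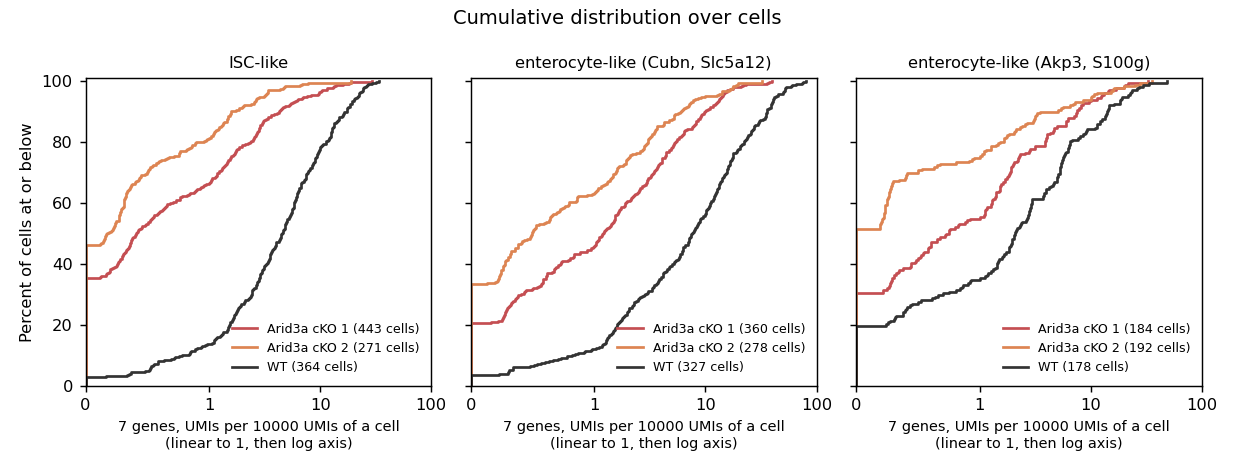
Cumulative distribution over cells of the UMIs of the 7 genes per 10000 UMIs of a cell (horizontal axis linear to 1, then logarithmic) in ISC-like cells and in the enterocyte-like clusters led by Cubn and Slc5a12 and by Akp3 and S100g, 1 line per library. The vertical axis is the percent of cells at or below a value; the WT line lies to the right of both cKO lines over most of its length, and the lines are closest in the Akp3 and S100g cluster.

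The members tended to be found in the same cells. Of thinned cells with a Cd74 UMI, 19.9%, 20% and 34.1% also had an H2-Aa UMI, against 2.33%, 2.29% and 4.04% of cells without one. For H2-Eb1 the shares were 40.5%, 31.1% and 55.8% with Cd74 and 8.64%, 5.58% and 15.1% without. All of Cd74, H2-Aa, H2-Ab1 and H2-Eb1 were detected in 4.76%, 2.83% and 20.4% of thinned cells, and none of them in 51.5%, 64.1% and 12.5%. Exactly 1 of them was detected in 25.1%, 21.8% and 22.6%. These shares are over all cell classes of a library together.

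Within the Cubn and Slc5a12 cluster the association was also present in each library. There H2-Ab1 was seen in 90.1% (83.0 to 94.9) of Cd74-positive and 47.96% (40.8 to 55.2) of Cd74-negative thinned cells of Arid3a cKO 1, and in 82.1% (70.8 to 90.4) and 27.7% (21.1 to 35.2) of those of Arid3a cKO 2. For H2-Eb1 the shares were 75.7% and 20.9% in Arid3a cKO 1 and 68.7% and 18.1% in Arid3a cKO 2. In this cluster of the cKO libraries, cells with a Cd74 UMI thus had H2-Ab1 and H2-Eb1 more often than cells without one.

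Ciita was detected in 60, 23 and 142 cells. In these the other 6 genes summed to 316.7, 224.0 and 1163 CPM, and in the remaining cells to 132.9, 86.9 and 522.1 CPM. In the Cubn and Slc5a12 cluster the levels were 563.1 and 311.3 CPM in Arid3a cKO 1, 407.2 and 194.3 CPM in Arid3a cKO 2 and 1864 and 1135 CPM in WT, with and without a Ciita UMI. Cells with a UMI of the coactivator were the higher ones in each library. In ISC- and TA-like cells of Arid3a cKO 1 they were not, at 109.4 CPM (83.7 to 140.6) in 10 cells with Ciita and 120.4 CPM (116.1 to 124.9) without.

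Other genes of the pathway come from lists chosen with earlier results of these data known. Of 5 further class II chains 4 were matched, and they were nearly silent: H2-Eb2 and H2-Ob had 0 UMIs in every library, which allows up to 0.0423, 0.0516 and 0.0479 CPM if the limit is set at 3 counts per library, and H2-DMb2 and H2-Oa had 1 UMI each, both in Arid3a cKO 2. H2-Oa and H2-Ob form the H2-O dimer, an inhibitor of H2-DM known from B cells. The co-stimulatory ligands Cd80 and Cd86, which professional antigen-presenting cells display to T cells, were also at 0 UMIs in all libraries, with the same upper limits. Cd40 had 5, 3 and 2 UMIs, and 0 of the 6 co-stimulatory genes reached a mean of 20 CPM.

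The factors that occupy the class II promoter together with CIITA mostly showed small differences. Of 7, 4 reached a mean of 20 CPM, 3 of them lower and 0 higher in both cKO libraries, with a median log2 ratio of -0.08, beside 32.8% lower and 43.0% higher among all 5336 genes. Rfxap, a subunit of the RFX complex that binds the X box, was at 26.4, 24.98 and 27.1 CPM. Nfyc, a subunit of the NF-Y complex that binds the Y box, was at 21.2, 21.04 and 22.8 CPM. Creb1, which also binds the X box region, was at 22.5, 20.05 and 25.9 CPM. Nfya, the NF-Y subunit that contacts the Y box, was under the 20 CPM mean and is named after its values were seen: at 9.98, 8.84 and 14.8 CPM (log2 ratios of -0.40 and -0.51) it had the largest difference of the 7.

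Genes listed under class II peptide processing differed little from WT. Of 8, 6 reached 20 CPM, 1 of them lower and 5 higher in both cKO libraries, with a median log2 ratio of 0.09. Over all 5336 genes, 32.8% were lower and 43.0% higher in both, with a median of 0.02. Ifi30, a thiol reductase of the lysosome, was at 273.9, 295.8 and 242.0 CPM. Ctss, the protease cathepsin S that cleaves the invariant chain, was at 62.6, 65.8 and 58.4 CPM. March8, a ubiquitin ligase, was the one that was lower, at 32.4, 31.7 and 34.0 CPM. All of these differences were small beside those of Cd74 and the chains.

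Interferon gamma signalling genes were divided. Of 7, 6 reached 20 CPM, 4 of them lower and 2 higher in both cKO libraries, with a median of -0.09. The shares over all 5336 genes were 32.8% lower and 43.0% higher. The receptor chains were the higher ones: Ifngr1 was at 112.3, 112.5 and 88.4 CPM (log2 ratios of 0.33 and 0.33) and Ifngr2 at 145.9, 150.2 and 113.6 CPM (0.35 and 0.39). Irf1, an interferon-induced transcription factor that acts on the CIITA promoter, was at 68.3, 64.1 and 87.1 CPM (-0.33 and -0.41). Ifng itself had 0, 2 and 3 UMIs, so its level could not be compared.

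None of the 19 interferon gamma target genes reached a mean of 20 CPM over all kept cells. All 19 had at least 1 UMI, and in both cKO libraries 12 lay below and 2 above WT, beside 41.8% and 25.6% of 26362 genes. In enterocyte-like cells 2 reached 20 CPM, both lower in both cKO libraries, beside 36.2% of 4723 genes. Igtp, a GTPase of the immunity-related family, was at 18.2, 11.7 and 66.2 CPM (-1.62 and -2.09), and Ifi47, of the same family, at 14.6, 15.6 and 32.05 CPM (-0.92 and -0.84). Others did not share this direction: Cxcl10, an interferon-induced chemokine named after its values were seen, was at 2.38, 2.39 and 1.96 CPM over all kept cells.

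The MHC class I pathway, which presents cytosolic peptides to CD8+ T cells and is active in most cells, differed much less. Of 10 genes 9 reached 20 CPM, and 9 of 9 were lower in both cKO libraries, though 0 by a log2 ratio of 1, with a median of -0.20. Among all 5336 genes 32.8% were lower in both. Psmb8, a subunit of the immunoproteasome, was at 171.3, 165.1 and 242.4 CPM (-0.49 and -0.54). Tap1, a peptide transporter, was at 27.8, 24.9 and 38.5 CPM (-0.41 and -0.54). H2-K1, a class I heavy chain, was at 482.1, 544.6 and 603.9 CPM (-0.32 and -0.15). Among 10 targets of type I and III interferons 2 reached 20 CPM, 1 of them lower and 0 higher, with Isg15 at 26.2, 27.6 and 29.0 CPM. In enterocyte-like cells 4 reached 20 CPM, 3 lower and 1 higher in both cKO libraries, beside 36.2% and 41.8% of 4723 genes. Ifit1 had the largest difference of these there, at 22.7, 19.3 and 42.7 CPM (-0.78 and -0.97).

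**Figure D4:**
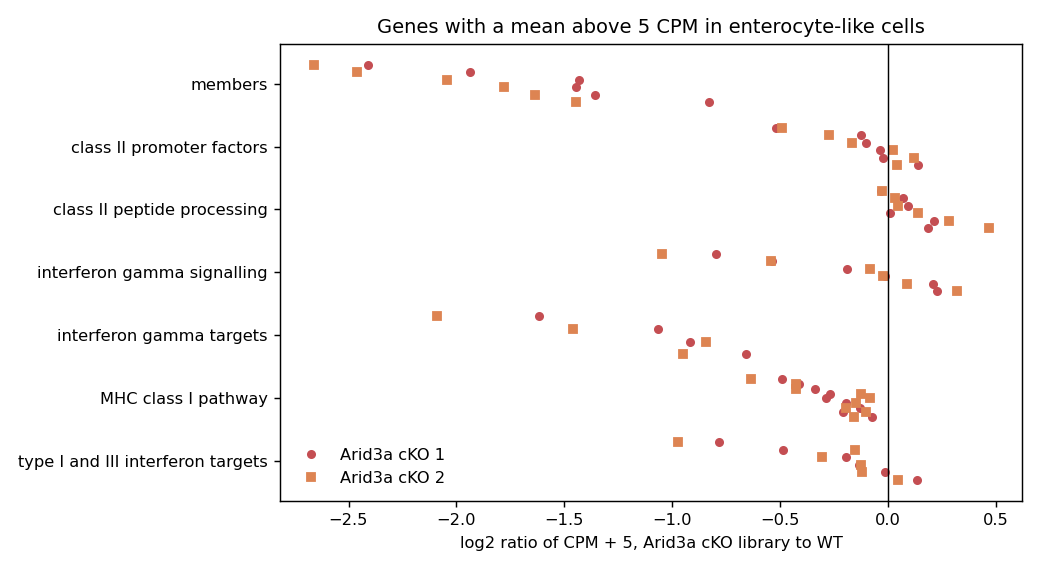
Log2 ratios of CPM + 5 of Arid3a cKO 1 (circles) and Arid3a cKO 2 (squares) to WT in enterocyte-like cells, for the genes of each list with a mean above 5 CPM (horizontal axis, with 0 marking no difference). Cd74 lies furthest to the left (-2.41 and -2.66), Igtp lies within the range of the members (-1.62 and -2.09), and promoter factors, peptide processing and class I genes lie between -0.63 and 0.47.

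The genes whose pattern was most like that of Cd74, H2-Aa, H2-Ab1 and H2-Eb1 were sought across 19 profiles, each of 1 cell class in 1 library with at least 40 cells, by Pearson's r of log2(CPM + 5). Outside the 7, Styk1, a receptor-like kinase gene, came first (r = 0.846), followed by mt-Nd3 (0.747), Dnaja1 (0.741), Psmb8 (0.732) and mt-Nd6 (0.715). Profiles of 1 library share its preparation, so any gene that separates WT from the cKO libraries gains by it. After the mean of each library was removed, r was 0.711 for Styk1 and 0.677 for Psmb8, but 0.329 for mt-Nd3 and 0.358 for Dnaja1. Among the 10 genes with the highest r, Nudt5 (r = 0.669) then had the highest value, 0.758. Of the members that did not define the pattern, H2-DMb1 had r = 0.945, Ciita 0.886 and H2-DMa 0.806. With the library means removed these were 0.895, 0.821 and 0.823. Styk1 was at 28.9, 31.8 and 45.5 CPM.

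Class II transcripts are abundant in antigen-presenting cells, so markers of other cells were examined beside these levels. B cell markers summed to 1.16, 1.75 and 1.60 CPM over 7 genes, with Cr2 at 0 UMIs in all libraries, Ms4a1 at 1, 2 and 2 UMIs and 71 to 94 UMIs from Cd79b. Myeloid and dendritic cell markers summed to 15.4, 15.7 and 17.2 CPM over 15 genes. Most of these UMIs were of Cd14 (667, 644 and 634), Itgam (158, 122 and 194), Cd68 (143, 86 and 140) and Mrc1 (72, 9 and 52). Xcr1, a dendritic cell receptor, had 14, 11 and 8 UMIs and Itgax 0, 0 and 2, while Flt3 and Clec9a were at 0. The part of such cells in the class II levels was not tested.

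Markers of T cells differed between all 3 libraries. Over 11 genes they summed to 2.81, 19.7 and 34.7 CPM, from 19, 23 and 33 cells, and Arid3a cKO 2 was nearer to WT than to Arid3a cKO 1 as a ratio. Plasma cell markers were at 0.0282, 0.0860 and 0.271 CPM over 6 genes, with Tnfrsf17 at 0, and pan-leukocyte markers at 7.23, 7.63 and 8.29 CPM over 5. Most UMIs of the pan-leukocyte sum were of Cytip (414, 394 and 354), which hides differences in the others. Ptprc had 84, 32 and 91 UMIs, Laptm5 5, 8 and 31, Coro1a 10, 8 and 37 and Cd53 0, 2 and 7, each highest in WT. Stromal markers had 2, 244 and 8 UMIs, those of Arid3a cKO 2 from 1 cell, and endothelial markers were at 0.437, 0.516 and 0.510 CPM with Cdh5 and Emcn at 0. Without every cell that held a T cell marker UMI, the mean log2 ratio of the summed class II level was -2.30, against -2.31 with all cells. This bears only on the UMIs counted in those 19, 23 and 33 cells. Any tie between T cells and the class II level of other cells was not tested.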

How the data were processed

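scRNA-seq libraries were those of the 10x Genomics 3′ kit. The authors counted reads with CellRanger 5.0.0, per the file headers, so that the deposited values are whole UMI counts for each gene and barcode. The genome build used for counting is not given in the sources used here. The 7 genes and all gene lists were chosen with earlier results of these data known, as were the named genes (members, and at most 5 genes per list with a mean of at least 20 CPM and the largest mean log2 ratio in size).

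Cells were kept by the study's limits. Clustering used Seurat 5.3.0 (R 4.3.3) with canonical correlation integration (3000 features, 2000 variable, 30 components, resolution 0.3), leaving out the pathway genes. The naming rule was set after the clusters were seen. UMIs were summed per library and class and divided by the class total. No test was made, as the genes were chosen on the contrast and WT has 1 library. Poisson and binomial intervals came from scipy 1.17.1. Doublets were kept. Scrublet (scanpy 1.11.5, seed 1, double precision) marked 30, 34 and 46 cells. The code was tested on simulated data. Gene identifiers matched GENCODE M21 for 51719 of 51912 genes. The values of 2 genes of the lists are not reported here, though counts, sums and medians include them. Alternatives are given in the closing section.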

Additional observations from a re-analysis of the deposited data

How the results depend on the processing

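The removal of cells with a T cell marker UMI was chosen after the data were seen. Over 13 results and 97 recomputed values, 92 stayed within the spread between the Arid3a cKO libraries (counts within 1.5 times the main count), 5 did not and 0 reversed. Mean log2 ratios recomputed without 1 of the cKO libraries stay within that spread by construction. They are among the 92 but say nothing about stability. With a pseudocount of 1 CPM the mean log2 ratio was -2.54 for H2-Aa, -1.87 for H2-DMb1 and -1.12 for Ciita (main values -1.98, -1.23 and -0.43), and with the wider cell limits Ciita was at -0.53. The mean log2 ratio of the summed level (-2.31 over all kept cells) was -2.27 with the wider limit of 500 genes and 25% mitochondrial UMIs, -2.28 with TMM scaling (edgeR 4.0.16) and -2.47 without the 1% of cells with the highest share. Leaving out either cKO library gave -2.62 to -2.01 over all kept cells, -2.37 to -1.88 in enterocyte-like cells and -3.16 to -2.26 in ISC- and TA-like cells. The count of genes lower in both cKO libraries rose from 15 to 37 at a log2 ratio of -0.5, as follows from the lower limit. H2-DMa met the limit of 1 with a pseudocount of 1 CPM or without Arid3a cKO 1, which made 6 of 7 genes. No paired analysis was possible because WT has 1 library and the labels name no pairs. Depth limits Ciita (26 to 167 UMIs a library) and, in Arid3a cKO 2, its 17 Paneth-like cells. With a single WT library its spread is unknown.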

Other observations

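The barcodes removed by the limits on genes and mitochondrial UMIs also held class II transcripts. As CPM of the UMIs outside the mitochondrial genome, the 7 genes summed to 236.8 (229.6 to 244.2) in the 4711 removed barcodes of Arid3a cKO 1, 154.8 (149.1 to 160.6) in the 5343 of Arid3a cKO 2 and 616.2 (607.3 to 625.3) in the 9906 of WT. In the kept cells the values on the same scale were 146.7, 93.9 and 611.4. The removed barcodes of both cKO libraries were thus above the kept cells of the same library, while those of WT were at nearly the same level. The order of the libraries was the same in removed and kept barcodes.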
